A study of Mus musculus with 20 samples.

Results

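The genes of de novo lipogenesis, the route by which cells build fatty acids from smaller carbon units, were followed together with Thrsp in the liver and kidney of mice given a cocktail of 7 small molecules. The 10 genes were Thrsp, Srebf1, Fasn, Acaca, Acacb, Acly, Scd1, Elovl6, Me1 and Pnpla3, out of 57010 genes in the deposited count table. Each symbol was matched to 1 Ensembl identifier in that table, and all 10 genes passed the filter on low counts in both tissues. The set joins well-known genes of the pathway to Thrsp, and Thrsp was chosen by its difference between 7c and vehicle kidneys, so the kidney values of 7c against vehicle are given below as a description with no test.

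All mice were males of the UM-HET3 stock, a cross of several inbred strains in which each animal is genetically distinct, and were 12 months old at the start. The 7c mice received repsox, tranylcypromine, DZNep, CHIR99021, forskolin and TTNPB at 0.1 mg/kg/day each and valproate at 1 mg/kg/day for 28 days from a subcutaneous osmotic minipump. Vehicle mice carried the same kind of pump with the solvent alone, which was 50% DMSO in PEG300, so that both groups shared the solvent and the surgery. Polyadenylated RNA of whole tissue was sequenced in 6 livers and 6 kidneys of 7c mice and in 4 livers and 4 kidneys of vehicle mice, 20 libraries in all. The labels call these biological replicates but do not tie a liver to a kidney of the same animal.

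Acly makes cytosolic acetyl-CoA from citrate, Acaca and Acacb carboxylate it to malonyl-CoA, and Fasn condenses these units into palmitate with NADPH that Me1 helps to supply. Elovl6 lengthens palmitate and Scd1 introduces a double bond, giving the oleate that liver packs into triglyceride. Srebf1 encodes the transcription factor SREBP-1, which switches on most of these genes in response to insulin, Pnpla3 is a lipid droplet protein under the same control, and Thrsp encodes a small nuclear and cytosolic protein (Spot 14) that is abundant in liver and fat and rises with carbohydrate feeding and thyroid hormone. De novo lipogenesis is known to be active in liver and in fat tissue and low in most of the kidney.

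The stretch just before the transcription start was read from RefSeq for the members that had an entry, because these genes share regulators and moved together across livers (below). The table held 12 start sites for 9 of the 10 genes. The 250 bases before the start are shown for Thrsp (GRCm38.p6, chr7:97417551-97417800, minus strand), Fasn (chr11:120824548-120824797, minus strand), Pnpla3 (chr15:84167566-84167815, plus strand) and the most downstream of the 3 Srebf1 starts (chr11:60210472-60210721, minus strand), each 5′ to 3′ on the strand of the gene. The first 3 were chosen as genes that followed Thrsp or are Thrsp itself, and Srebf1 as the member that followed it least. Acacb, which followed Thrsp most closely, is not shown. Capitals mark matches on either strand to the NF-Y box CCAAT and the GC box GGGCGG.
Thrsp: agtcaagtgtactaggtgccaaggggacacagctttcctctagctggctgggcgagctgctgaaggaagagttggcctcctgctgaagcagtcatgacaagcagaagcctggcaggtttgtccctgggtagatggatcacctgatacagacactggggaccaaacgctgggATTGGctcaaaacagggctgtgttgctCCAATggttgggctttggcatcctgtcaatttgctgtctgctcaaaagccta
Fasn: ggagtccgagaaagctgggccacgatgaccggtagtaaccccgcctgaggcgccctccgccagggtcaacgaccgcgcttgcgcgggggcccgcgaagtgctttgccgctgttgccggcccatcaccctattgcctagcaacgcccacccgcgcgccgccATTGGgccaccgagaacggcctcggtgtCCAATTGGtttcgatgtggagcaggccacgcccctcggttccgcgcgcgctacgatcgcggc
Pnpla3: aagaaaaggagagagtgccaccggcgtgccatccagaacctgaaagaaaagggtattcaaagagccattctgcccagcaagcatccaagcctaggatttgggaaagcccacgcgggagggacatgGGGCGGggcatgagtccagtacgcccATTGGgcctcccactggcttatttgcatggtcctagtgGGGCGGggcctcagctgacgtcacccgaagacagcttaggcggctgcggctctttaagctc
Srebf1: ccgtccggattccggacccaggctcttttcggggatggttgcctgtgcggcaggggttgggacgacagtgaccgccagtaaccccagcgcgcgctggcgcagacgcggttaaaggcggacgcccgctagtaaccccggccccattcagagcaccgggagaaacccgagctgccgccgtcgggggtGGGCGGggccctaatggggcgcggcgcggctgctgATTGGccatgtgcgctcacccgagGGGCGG
In the Thrsp stretch an inverted and a direct CCAAT began at -79 and -52 relative to the start. The Fasn stretch held 3 matches, at -90, -62 and -59, and the last of these shared letters with the one before it. Pnpla3 had 1 inverted CCAAT at -99 and Srebf1 had 1 at -30, between GC boxes at -65 and -6. Counted over windows that also include the 50 bases after the start, CCAAT was found at 8 of the 12 member starts, against 37.4% of all 32851 RefSeq windows of that length, and GGGCGG at 5 of 12, against 35.7%. Every stretch shown holds CCAAT, whereas the windows of Acaca and Elovl6, which are not shown, hold none. Neither the sterol regulatory element TCACNCCAC (1.24% of all windows) nor the E-box CACGTG (7.15%) was spelled out in any of the 12. A match is a description of letters and not of binding, and these windows cover only a short stretch at each start.

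Liver libraries held between 28383359 and 34153084 counts, and kidney libraries between 27855849 and 64872451. The 7 hepatocyte markers summed to between 74090 and 106800 CPM (counts scaled to library size) in every liver, and the 6 proximal tubule markers to between 34730 and 71280 CPM in every kidney and to at most 1.65 CPM in any liver, so each library matched its tissue. A single liver, 7c liver 6, also held skeletal muscle transcripts, whose 5 markers summed to 606 CPM against at most 1.28 CPM in vehicle livers. Because RNA of whole tissue was measured, fewer cells of a type and less RNA per cell cannot be told apart.

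In vehicle mice Thrsp had the largest estimate of the 10 genes between the 2 organs, with vehicle kidneys that also entered the contrast by which it was chosen. Thrsp (ENSMUSG00000035686, GRCm39 chr7:97062139-97066937, minus strand) stood at 371, 144, 275 and 297 CPM in the 4 vehicle livers and at 3.82, 2.23, 3.05 and 1.68 CPM in the 4 vehicle kidneys. Every vehicle liver was far above every vehicle kidney. Fitted across both tissues with edgeR's quasi-likelihood test, Thrsp was 154.5-fold higher in liver (log2 fold difference 7.27 ± 0.38 SE, n = 4 against 4, adjusted p = 4.0e-08). Scd1 (ENSMUSG00000037071, GRCm39 chr19:44382894-44399154, minus strand), the main hepatic stearoyl-CoA desaturase, came next, at 6060, 3173, 5727 and 6341 CPM in vehicle livers and 71.1, 57.1, 105 and 89.1 CPM in vehicle kidneys. Its liver level was 101.9-fold higher (log2 6.67 ± 0.32 SE, adjusted p = 2.11e-08 by edgeR). The gene of this name has close paralogs, so some of its reads may be split among them, a share that was not measured.

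Of the other members, Srebf1 (GRCm39 chr11:60089913-60113407), Fasn (chr11:120696672-120715995), Acaca (chr11:84020476-84292477) and Acly (chr11:100367165-100440756) lie far apart on chromosome 11. Acacb (chr5:114284307-114388822), Elovl6 (chr3:129326004-129432144) and Pnpla3 (chr15:84051943-84073723) are on 3 other chromosomes. The core enzymes differed less between the organs. In vehicle mice Elovl6 was higher in liver by 3.60 ± 0.21 on the log2 scale, Fasn by 3.01 ± 0.23, Acaca by 2.47 ± 0.17, Acacb by 2.45 ± 0.18 and Acly by 1.99 ± 0.18, and their regulator Srebf1 by 3.20 ± 0.24 (estimate ± SE, edgeR, each with an adjusted p of 3.36e-06 or lower). Counted together, 8 of the 10 genes were called higher in liver, where 25.7% of the 17245 genes tested were. Me1 (ENSMUSG00000032418, GRCm39 chr9:86462646-86578104, minus strand), the cytosolic malic enzyme, went the other way. It stood between 197 and 301 CPM in vehicle livers and between 526 and 637 CPM in vehicle kidneys, so that no liver reached the lowest kidney. Its log2 difference was -0.55 ± 0.16 SE (adjusted p = 0.0152 by edgeR), a call shared by 27.7% of tested genes, and without the vehicle samples numbered 4 it was no longer past the threshold (adjusted p = 0.0671). Pnpla3 was scarce in both organs, with 1 to 31 counts in vehicle livers and 0 to 23 in vehicle kidneys, and its difference of 1.34 ± 1.05 SE did not pass (adjusted p = 0.309 by edgeR).

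**Figure D1:**
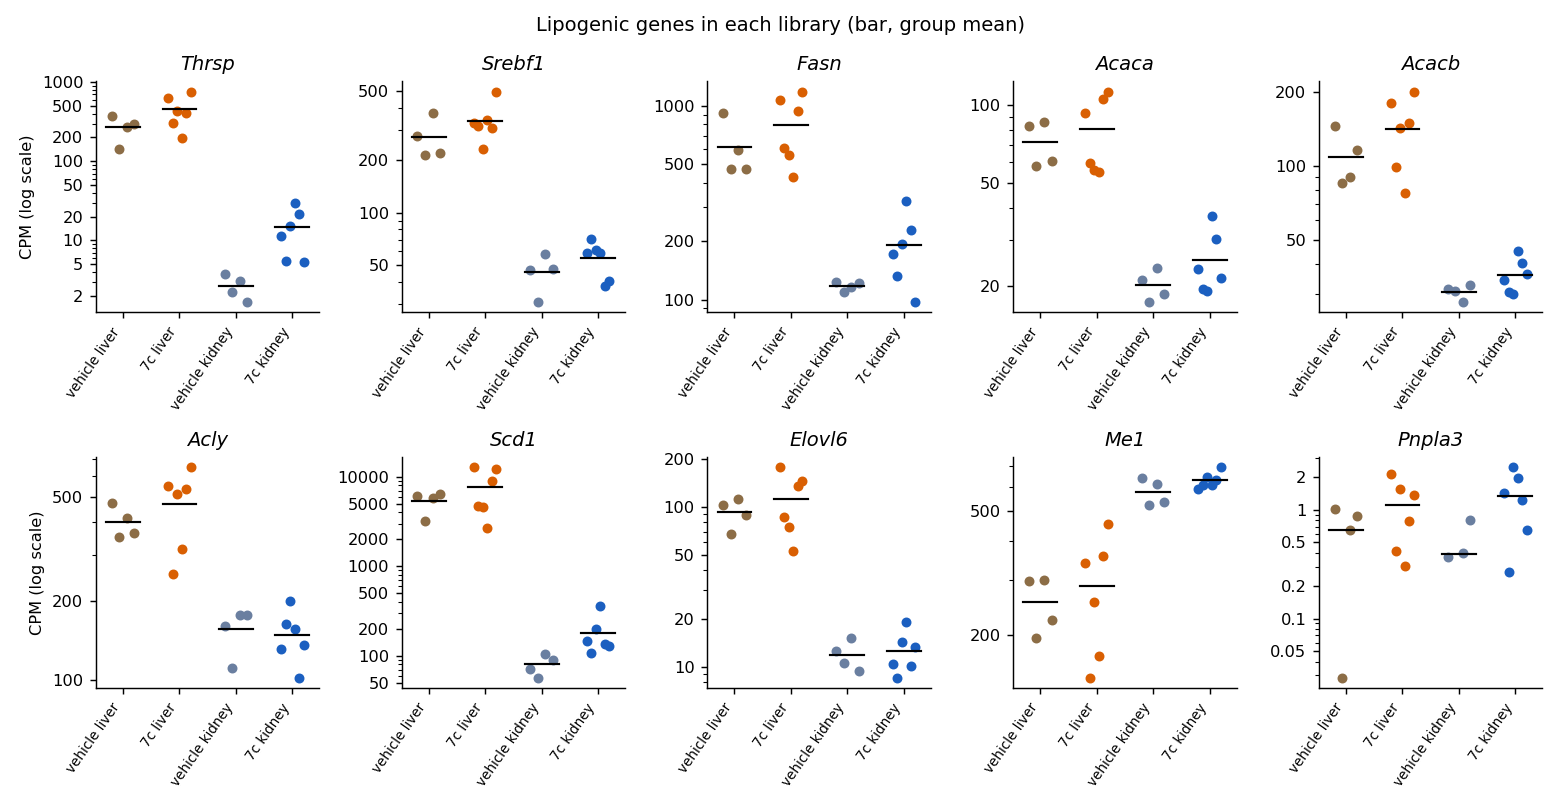
Each panel shows 1 gene, with CPM on a log axis and 1 point per library in the 4 groups, and a bar at the group mean. The points of 8 genes sit higher in liver than in kidney, those of Me1 sit lower, and Pnpla3 is near or below 2 CPM throughout (1 vehicle kidney with 0 CPM has no place on the log axis and is not drawn).

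In 7c mice, whose kidneys also entered the contrast by which Thrsp was chosen, the same 8 genes were called higher in liver, beside 30.9% of the 17117 genes tested there. Thrsp was 47.5-fold higher (log2 5.57 ± 0.49 SE, n = 6 against 6, adjusted p = 6.45e-08) and Scd1 64.9-fold higher (6.02 ± 0.47 SE, adjusted p = 1.72e-08), again by edgeR. Here Scd1 had the larger estimate. The change of these estimates from vehicle to 7c mice restates in part the kidney contrast and was not tested. Elovl6 was at 3.76 ± 0.30, Srebf1 at 3.24 ± 0.20, Fasn at 2.67 ± 0.31, Acacb at 2.58 ± 0.21, Acaca at 2.29 ± 0.23 and Acly at 2.27 ± 0.23, so that Srebf1, Elovl6, Acacb and Acly had estimates above and Fasn and Acaca below those in vehicle mice. Me1 was at -0.51 ± 0.23 (adjusted p = 0.0565), just short of a threshold that 34.8% of genes passed in that direction and that Me1 itself passed under several alternatives, among them DESeq2 (adjusted p = 0.0295) and limma-voom (adjusted p = 0.0189), and Pnpla3 at 0.33 ± 0.53 (adjusted p = 0.608).

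**Figure D2:**
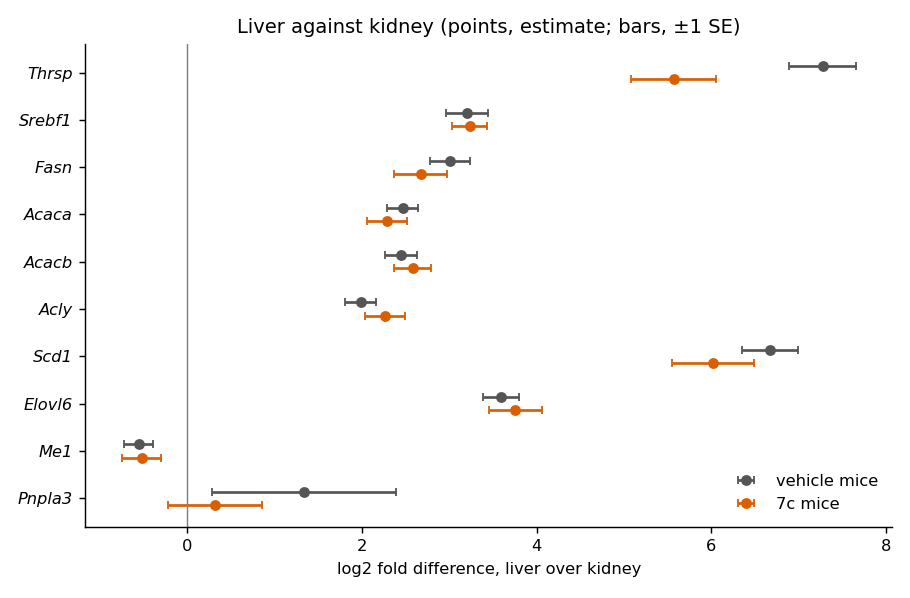
The log2 fold difference of liver over kidney is plotted for each gene, in vehicle mice (grey) and in 7c mice (orange), with bars of 1 SE. Thrsp and Scd1 lie farthest to the right, at 7.27 and 6.67 in vehicle mice, and Me1 is the only gene left of 0.

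Per kilobase of transcript, which allows genes to be set side by side, Scd1 led in vehicle livers at 1060 CPM per kb (range 632 to 1262), followed by Thrsp at 213 (112 to 290). Neither range met its neighbour's, since Acly, next in order at 91.0, reached no higher than 107.5. Srebf1, Me1 and Fasn followed at 62.8, 61.2 and 56.7 CPM per kb with overlapping ranges, and the ranges of Srebf1 and Fasn also met that of Acly. Elovl6 at 15.2 and Acacb at 12.0 overlapped, Acaca was lower at 7.57 (6.14 to 9.03) with no overlap with Acacb, and Pnpla3 was last at 0.46. In vehicle kidneys Me1 led at 139 CPM per kb, with Acly at 35.5 and Scd1 at 16.1 after it. Thrsp, at 2.11 CPM per kb, lay among Acaca at 2.12 and Elovl6 at 1.94, and these 3 overlapped. Thrsp was at rank 2 of 10 in vehicle livers and at rank 8 of 10 in vehicle kidneys.

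The question of whether 28 days of 7c altered this programme in liver was tested gene by gene. Thrsp stood at 625, 301, 438, 196, 409.7 and 761 CPM in the 6 7c livers. In 4 of them it lay above all 4 vehicle livers, while the other two fell within the vehicle range, so the groups overlapped. The mean was 455 ± 208 CPM (SD, n = 6) against 272 ± 94.6 CPM (n = 4), a log2 fold change of 0.74 ± 0.34 SE with an unadjusted p of 0.044 and an adjusted p of 0.9996 in edgeR's test across 15012 genes. Without 7c liver 6, the liver with muscle transcripts, the estimate was 0.54.

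None of the 10 genes passed an adjusted p of 0.05 by edgeR in liver, and 1 of them, Thrsp, had an unadjusted p under 0.05. DESeq2, limma-voom and edgeR's likelihood ratio test also gave 0 of 10. Over all genes 0.00666% were called, which is 1 gene, and 565 had an unadjusted p under 0.05. In this fit, though not under every alternative, the 10 point estimates lay above 0, between 0.16 for Acaca and 0.77 for Pnpla3, with a median of 0.34 where the median of all tested genes was 0.00 and 50.4% of them lay above 0. These 10 values are not separate pieces of evidence, because the same livers were high or low for most of the genes. No member had every 7c liver above every vehicle liver, as 0.32% of all tested genes did.

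Scd1 illustrates the spread among 7c livers. Its lowest, median and highest 7c values were 2698, 6822 and 12760 CPM, against 3173, 5893 and 6341 CPM in vehicle livers, so the 7c livers reached both below and above all vehicle livers. The log2 fold change was 0.52 ± 0.38 SE. Fasn, the fatty acid synthase, ran from 429 through a median of 772 to 1183 CPM in 7c livers and from 471 through 533 to 913 CPM in vehicle livers (0.38 ± 0.28 SE). For Srebf1, 5 of 6 7c livers lay inside the vehicle range of 216 to 376 CPM and 1, 7c liver 6, lay above it at 497 CPM (0.31 ± 0.20 SE). For Acaca, Acly and Me1, 2 of the 6 7c livers lay below every vehicle liver and at least 3 above, and their log2 fold changes were 0.16 ± 0.22, 0.23 ± 0.22 and 0.18 ± 0.27. Single livers moved these uncalled estimates by over 1.5 times for each gene except Thrsp and Acacb. Without 7c liver 6 all 10 were smaller, among them Scd1 at 0.343, Fasn at 0.233, Srebf1 at 0.167, Acly at 0.115, Acaca at 0.0427 and Me1 at 0.00345. Without 7c liver 1, Elovl6 was at 0.0862, and without vehicle liver 2, Pnpla3 was at 0.369. In the other direction, Fasn reached 0.636 without vehicle liver 1 and Srebf1 0.509 without vehicle liver 3.

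The other members also overlapped between the groups. Acaca, the cytosolic carboxylase, ran from 55.1 through a median of 76.5 to 113 CPM in 7c livers and from 58.4 through 71.9 to 85.9 CPM in vehicle livers. Acly ran from 253 through 525 to 650.0 CPM and from 352 through 389.9 to 474 CPM. Both genes spread more widely among the 7c livers. Elovl6, the elongase of palmitate, lay between 52.7 and 177 CPM in 7c livers and between 67.9 and 112 CPM in vehicle livers (0.26 ± 0.28 SE), and Me1 between 146.5 and 455 CPM and between 197 and 301 CPM. Pnpla3 was at 0.30 to 2.13 CPM in 7c livers, from 9 to 65 counts, and at 0.03 to 1.02 CPM in vehicle livers (0.77 ± 0.72 SE).

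**Figure D3:**
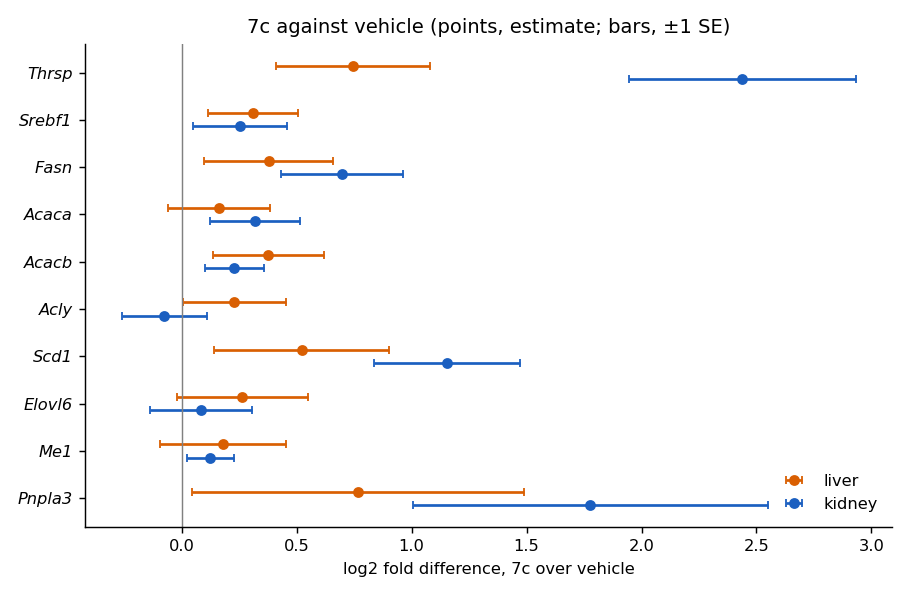
The log2 fold difference of 7c over vehicle is drawn for each gene in liver (orange) and kidney (blue), with bars of 1 SE. In liver every estimate is between 0.16 and 0.77 and none passed the test, and in kidney Thrsp (2.44), Pnpla3 (1.78) and Scd1 (1.15) lie farthest to the right, where no test was made because Thrsp was chosen from that contrast.

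Other genes of the pathway gave no call in liver either. Among 14 regulators, 8 estimates were above 0 and 6 below, with a median of 0.07. Mlxipl, which encodes the carbohydrate-responsive factor ChREBP, was at 0.13 ± 0.13 SE, Rxra at -0.06 ± 0.11 and Mid1ip1, the paralog of Thrsp, at 0.22 ± 0.15. Insig1, an SREBP target that retains its activator in the endoplasmic reticulum, was at 0.26 ± 0.13, while Insig2 was at -0.29 ± 0.12 (unadjusted p = 0.0341, adjusted p = 0.9996 by edgeR), the 1 regulator under 0.05 before adjustment. All 10 genes that supply carbon and NADPH had estimates above 0, with a median of 0.13. Among them were Mdh1 at 0.05 ± 0.10, Idh1 at 0.09 ± 0.10, Slc25a1, the citrate carrier, at 0.10 ± 0.10 and Acss2, which activates acetate, at 0.18 ± 0.15. The 15 tested genes of elongation and desaturation had a median of 0.02 and 9 estimates above 0, with Elovl5 at -0.10 ± 0.21, Fads1 at -0.02 ± 0.13, Cyb5a at 0.19 ± 0.10 and Cyb5r3 at 0.02 ± 0.14. Elovl3, named after its values were seen, had the lowest estimate of that list, -0.56 ± 0.38, with 4 of 6 7c livers below all vehicle livers. In glycerolipid assembly 6 of 12 were above 0, with a median of 0.03 and Gpam, the first acyltransferase of the pathway, at 0.36 ± 0.24. Acsl1 was at -0.006 ± 0.09, Dgat2 at 0.15 ± 0.12 and Acsl5 at 0.06 ± 0.13. Lpin1, a phosphatidate phosphatase that was singled out after its values were seen, was at 1.25 ± 0.48 (unadjusted p = 0.0206, adjusted p = 0.9996 by edgeR).

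Between organs, where 25.7% of all tested genes were called higher in liver and 27.7% lower, genes of these lists were called in both directions. In vehicle mice 9 of 14 regulators were called higher in liver and 1 lower, with Insig1 at 4.39 ± 0.22 SE, Insig2 at 4.06 ± 0.22, Rxra at 1.88 ± 0.13, Mid1ip1 at 1.66 ± 0.17 and Mlxipl at 1.13 ± 0.16 on the log2 scale. Of the 10 supply genes 4 were higher and 3 lower, shares near those of all genes, with Slc25a1 higher by 1.48 ± 0.16 and Mdh1, a cytosolic malate dehydrogenase, at -0.55 ± 0.14, close to the value of Me1. Of the elongation and desaturation list 11 of 15 were higher in liver and 3 lower, and of the glycerolipid list 8 of 12 were higher and 2 lower. Mid1ip1 thus shared the direction of Thrsp with a smaller difference.

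Across the 10 livers, most members rose and fell together from mouse to mouse. Thrsp spanned 5.30-fold from the lowest liver to the highest, Scd1 4.73-fold, Elovl6 3.35-fold and Acaca 2.05-fold. The liver 7c 6 was among the 3 highest for 10 of the 10 genes, 7c 1 for 9 and 7c 5 for 7, whereas vehicle liver 2 was among the 3 lowest for 10 and 7c liver 4 for 9. High and low livers were therefore found within the 7c group itself.

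Acacb, the acetyl-CoA carboxylase of the mitochondrial surface, followed Thrsp most closely. In 7c livers 1 to 6 it was at 181, 99.3, 142, 77.9, 149 and 201 CPM, and in vehicle livers 1 to 4 at 146, 85.0, 89.9 and 116 CPM. The livers with the least Thrsp, vehicle 2 and 7c 4, also had the least Acacb, and the livers with the most, 7c 1 and 7c 6, had the most. Pearson's r of log2 CPM was 0.94 and Spearman's rho 0.94 (permutation test, 2-sided, adjusted p = 0.00045 and 0.00099 over 9 genes), and Acacb had the highest r with Thrsp of 15011 genes. The next were Chrna4, a nicotinic receptor subunit, at 0.93, Isoc2a at 0.91, Clip4 at 0.90 and Nampt, the rate-limiting enzyme of NAD salvage, at 0.90.

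The correlation with Thrsp passed an adjusted p of 0.05 for 8 of the 9 other members by the permutation test of Pearson's r and for 7 by that of Spearman's rho. Pearson's r was 0.89 for Pnpla3, 0.88 for Scd1, 0.84 for Fasn, 0.79 for Elovl6, 0.77 for Acly, 0.76 for Me1 and 0.70 for Acaca, and Spearman's rho in the same order was 0.88, 0.73, 0.84, 0.71, 0.84, 0.70 and 0.61, the last with an adjusted p of 0.0757. An r of at least 0.7 was found for 7 of the 9 members and for 1.45% of all genes. Srebf1 was the exception, with r = 0.51 (permutation adjusted p = 0.129) and rho = 0.31 (0.387).

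When the 2 livers farthest from the median Thrsp level, 7c liver 6 and vehicle liver 2, were left out, 6 of the 9 members passed by Pearson's r and 1, Acacb, by Spearman's rho (permutation adjusted p = 0.0411). Acacb was then at r = 0.95 and Pnpla3 at 0.91, Acaca at 0.53 and Me1 at 0.67 no longer passed, and Srebf1 was at -0.21. Without 7c liver 6 alone, 5 members passed by Pearson's r, namely Acacb, Pnpla3, Scd1, Fasn and Elovl6, and 4 by rho. Within the 6 7c livers 7 passed by an exact permutation test of Pearson's r, with Acacb at r = 0.99 (adjusted p = 0.025), whereas 0 of 9 passed by that of rho, whose smallest adjusted p was 0.131. The 4 vehicle livers are too few for a value of their own. The number of members past the threshold thus depended on the livers included and on the measure, and Srebf1 passed in none of these sets. Without 7c liver 4 alone its r was 0.64 (permutation adjusted p = 0.064). Whether its r differs from that of the other members was not tested.

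**Figure D4:**
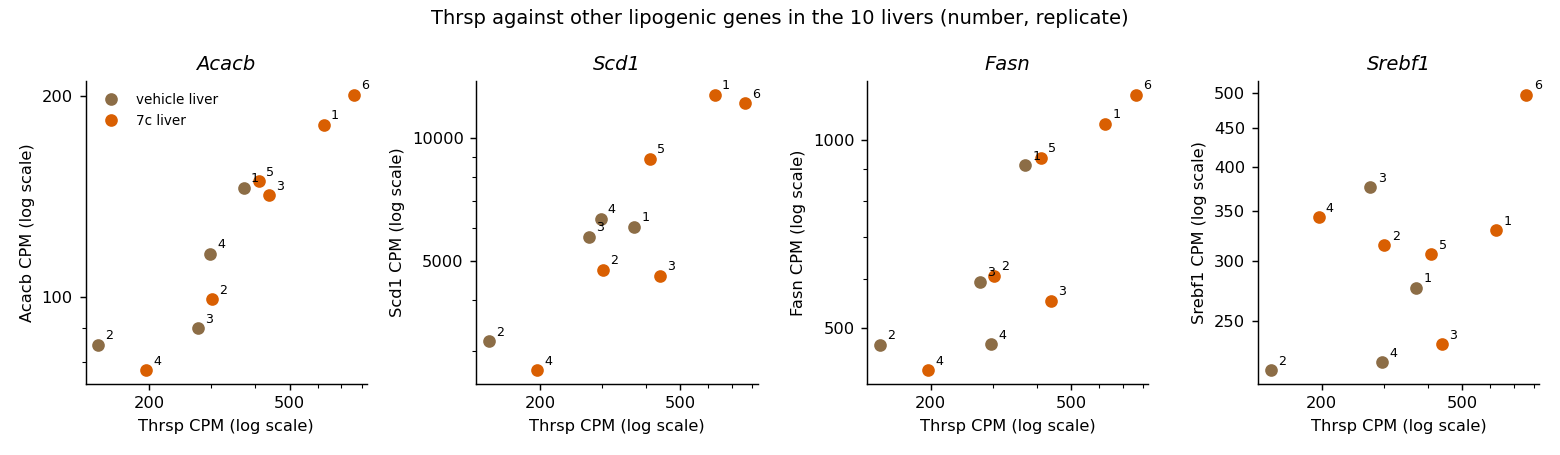
Thrsp CPM is plotted against Acacb, Scd1, Fasn and Srebf1 CPM in the 10 livers, both axes logarithmic, with vehicle livers brown, 7c livers orange and the replicate number beside each point. Acacb rises with Thrsp along the whole range (r = 0.94), and Srebf1 shows no such order (r = 0.51).

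Over all 45 pairs of members the median r across livers was 0.77, and 29 pairs were above 0.7. The closest pair was Scd1 with Elovl6, which act on neighbouring steps, at 0.97. Acly with Me1 was at 0.96. Srebf1 was above 0.7 with 0 of its 9 partners and had a median r of 0.48. Gene-level counts do not separate the Srebf1 isoforms, whose start sites differ. Across the 10 kidneys the median over 45 pairs was 0.41, with 10 above 0.7. Livers or kidneys of one comparison share the same libraries, so these pairs are not independent.

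In kidney, Thrsp stood at 11.2, 5.46, 15.3, 29.4, 21.4 and 5.33 CPM in the 6 7c mice and at 3.82, 2.23, 3.05 and 1.68 CPM in the 4 vehicle mice. All 7c kidneys lay above all vehicle kidneys, and the 7c kidneys themselves spread over more than 5-fold. The means were 14.7 ± 9.44 CPM (SD, n = 6) and 2.69 ± 0.94 CPM (n = 4), and the log2 difference was 2.44 ± 0.49 SE. Even the highest kidney, at 29.4 CPM, was below the lowest liver, at 144 CPM, each scaled within its own tissue. Scd1 was at 148, 107, 200.5, 356, 136 and 129.5 CPM in 7c kidneys and at 71.1, 57.1, 105 and 89.1 CPM in vehicle kidneys (1.15 ± 0.32 SE). The lowest 7c kidney, at 106.7 CPM, was only just above the highest vehicle kidney, at 105.4 CPM, and scaled by library totals alone the order of these 2 was the other way, 107.7 against 110.0. Thrsp and Scd1 were the 2 of 10 members without overlap, and 0.31% of all kidney genes had every 7c kidney above every vehicle kidney, a share from which nothing is read here because the contrast chose Thrsp.

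Fasn and Pnpla3 were higher in most 7c kidneys. Fasn stood at 172, 131.5, 194, 321, 228 and 97.2 CPM in 7c kidneys against a narrow 109 to 124 CPM in vehicle kidneys, with 5 of 6 above that range and 7c kidney 6 below it (0.70 ± 0.26 SE). Pnpla3 exceeded the vehicle range in 4 of 6, at 0.27 to 2.46 CPM against 0 to 0.80 CPM, which rests on 9 to 94 and 0 to 23 counts (1.78 ± 0.77 SE). The other members lay closer to 0, with Acaca at 0.32 ± 0.20, Srebf1 at 0.25 ± 0.21, Acacb at 0.23 ± 0.13, Me1 at 0.12 ± 0.10, Elovl6 at 0.08 ± 0.22 and Acly at -0.08 ± 0.18. For each of these 6 genes, some 7c kidneys lay within the vehicle range.

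Transcripts of fat cells moved along with Thrsp in kidney. Of 11 white fat markers 10 could be fitted and all 10 had estimates above 0, beside 49.0% of all kidney genes. Their median was 2.09, against -0.01 for all kidney genes. The 7c kidneys alone could carry a marker through the filter on low counts, so nothing is read from this count. The sum of all 11 ran from 61.8 to 81.4 CPM in vehicle kidneys and from 84.8 to 213 CPM in 7c kidneys, without overlap. Fabp4 and Lipe, a hormone-sensitive lipase, made up 72.7% to 95.4% of it in vehicle and 48.8% to 80.5% in 7c kidneys, and vehicle kidney 2, with the highest vehicle sum, had 4 counts of Adipoq and 0 of Plin1. Adiponectin (Adipoq) averaged 1.32 CPM in vehicle and 5.49 CPM in 7c kidneys, the lipid droplet proteins Plin1 0.99 and 5.56 CPM and Cidec 1.36 and 7.86 CPM, and the fatty acid carrier Fabp4 38.5 and 65.8 CPM. Ucp1, the uncoupling protein of brown fat, had 0 counts in all 4 vehicle kidneys and 6.72, 31.8 and 17.7 CPM in 7c kidneys 1, 4 and 5, with at most 2 counts in the other 7c kidneys. It is 1 of 5 brown fat markers, whose sum overlapped between the groups, at 5.57 to 16.5 CPM in vehicle and 5.80 to 58.8 CPM in 7c kidneys. In vehicle kidneys Cox7a1 alone ran from 5.08 to 16.1 CPM and made up most of that sum. Cidea averaged 0.048 and 2.63 CPM and Cox8b 0.058 and 1.87 CPM in vehicle and 7c kidneys, each with at most 6 counts in a vehicle kidney. The other two differed little on average, with Cox7a1 at 0.16 ± 0.37 SE on the log2 scale and Elovl3, for which 5 of 6 7c kidneys lay below every vehicle kidney, at 0.07 ± 1.14.

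The 7 hepatocyte markers summed to 2471 to 2969 CPM in vehicle and 2181 to 2906 CPM in 7c kidneys, which overlapped. Cyp2e1 alone averaged 2526 CPM in vehicle and 2335 CPM in 7c kidneys, so this sum rests largely on that gene. Of the 6 markers that could be fitted, 5 had estimates below 0, with a median of -0.60, a description with no test. Cps1, a urea cycle enzyme, averaged 1.14 CPM in vehicle and 0.14 CPM in 7c kidneys, with all 6 7c kidneys below all 4 vehicle kidneys. Albumin (Alb) averaged 34.4 and 16.3 CPM and Apoa1 4.77 and 1.44 CPM, while Cyp2e1 was at -0.11 ± 0.13 SE, Ttr at -0.08 ± 0.33 and Serpina1a at 0.43 ± 0.80 on the log2 scale. Their part in the values of the lipogenic genes was not tested.

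Across the 10 kidneys Pearson's r with the white fat sum, which rests largely on Fabp4 and Lipe, on log2 values and given as a description, was 0.87 for Thrsp, 0.81 for Fasn, 0.74 for Scd1, 0.69 for Acacb, 0.64 for Acaca and 0.59 for Pnpla3. It was 0.33 for Me1, 0.31 for Elovl6, -0.01 for Srebf1 and -0.25 for Acly. Within the 6 7c kidneys it was 0.85 for Thrsp, 0.75 for Fasn, 0.64 for Acaca, 0.64 for Pnpla3, 0.57 for Acacb, 0.55 for Scd1 and 0.46 for Elovl6. It was 0.10 for Me1, -0.18 for Acly and -0.40 for Srebf1. When the 3 kidneys with more than 1 CPM of Ucp1 were left out, a choice made after the values were seen, the log2 difference was 1.69 for Thrsp, 0.86 for Scd1, 1.54 for Pnpla3 and 0.27 for Fasn. The part of fat cell RNA in the kidney values of these genes was not tested. In liver the white fat sum was lower, at 25.2 to 36.1 CPM in vehicle and 24.1 to 49.1 CPM in 7c livers. It was highest in 7c livers 6, 1 and 5, at 49.1, 41.8 and 37.3 CPM, and lowest in 7c liver 4. The former were mostly high and the latter mostly low for the lipogenic genes, and the part of fat cell RNA there was not tested. Plin1 had 0 counts in all vehicle livers and at most 2 in a 7c liver, and Adipoq no more than 10 in any liver. Not every marker was lower in liver, as Pparg averaged 7.05 CPM in vehicle livers and 4.06 CPM in vehicle kidneys, and Cidec 2.28 and 1.36 CPM.

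**Figure D5:**
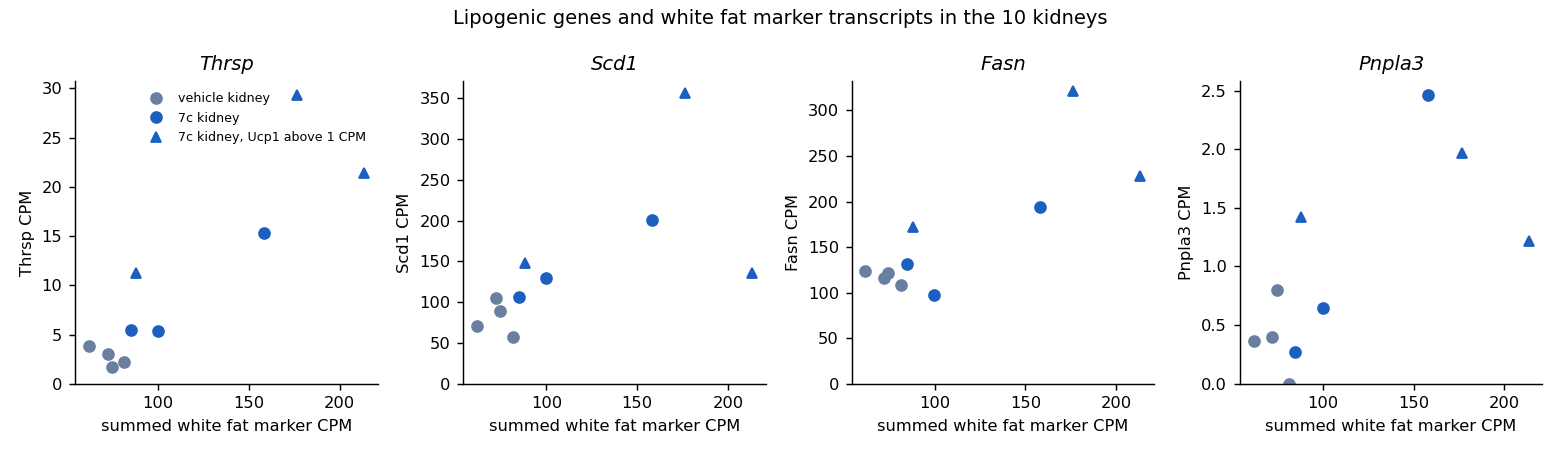
CPM of Thrsp, Scd1, Fasn and Pnpla3 is plotted against the summed CPM of 11 white fat markers in the 10 kidneys, with vehicle kidneys grey, 7c kidneys blue and triangles for the 3 7c kidneys with more than 1 CPM of Ucp1. Thrsp rises with the marker sum (r = 0.87 on log2 values), and the vehicle kidneys sit together at the lower left, between 61.8 and 81.4 CPM of markers.

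The genes most like Thrsp differed between the organs. In kidney the 5 with the highest r included Gm56688 at 0.94, Gsdmd, the pore-forming gasdermin, at 0.89, Fasn at 0.89 and the stress factor Atf3 at 0.88, over 10 libraries and 17748 genes. Fasn was the 1 member among them, and 4 of the 9 members reached an r of 0.7 there, as 0.84% of all genes did. Nothing is read from that share, because Thrsp was chosen on the difference between these kidney groups. Within the 6 7c kidneys r with Thrsp ran from -0.34 for Me1 to 0.97 for Fasn. Acacb, which ranked 1 in liver, ranked 179 in kidney with r = 0.69. Acly and Thrsp, at 0.77 in liver, were at -0.15 in kidney. Whether these correlations differ between the organs was not tested.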

How the data were processed

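Liver and kidney RNA of 7c and vehicle mice was sequenced from stranded poly(A) libraries. The authors mapped reads to GRCm39 with STAR 2.7.11b and deposited raw gene counts from featureCounts 2.0.6, 1 column per library. The annotation release, the strand setting and the handling of multi-mapping reads are not given in the sources used here. A gene was kept when 50% or more of a comparison's libraries had 10 or more counts. Counts were scaled by TMM within each comparison and tested over all kept genes with edgeR 4.0.16 (quasi-likelihood, Benjamini-Hochberg, R 4.3.3). SE is the absolute log2 fold change divided by the root of F. CPM were scaled within tissue, and CPM per kb used the canonical transcript of GENCODE vM39, which also gave positions. Correlations used log2 CPM (prior count 2), 100000 permutations (scipy 1.17.1) and adjustment over 9 genes. All 10 members were named, with up to 4 abundant genes per pathway list, Mid1ip1, 5 genes most like Thrsp per tissue and 4 fat markers, and 1 gene that the rule names is not reported here. Members and lists were chosen with earlier results of these data known. The fits were tested on simulated data. Alternatives were DESeq2 1.42.0, limma 3.58.1, other scalings and filters, a replicate block and leaving out libraries. P-values of 7c against vehicle measure the spread between these mice. Those between organs treat every liver and kidney as a separate animal, although some may come from the same mouse. Permutation p-values concern the correlations alone. Counting error at these depths is small except for Pnpla3.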

Additional observations from a re-analysis of the deposited data

How the results depend on the processing

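No member passed the threshold for 7c against vehicle in liver under any alternative (18 settings), and 8 or 9 members passed between organs. The labels do not say what a replicate number stands for. Same-numbered 7c and vehicle livers deviated with r from -0.05 to 0.03. Between organs r ran from 0.01 to 0.26 and was over 0.1 for 7 of 10 numbers, and 8 of 10 livers correlated best with the kidney of their own number, a hint of pairing from the data that the labels do not state, so the fits reported have no block. With a replicate block the liver estimates of Acaca (-0.137), Acly (-0.0392), Elovl6 (-0.0562) and Me1 (-0.21) turned below 0, with no call before or after, and the cause was not tested. Other liver estimates stayed above 0 under every alternative but fell as low as 0.0336 for Scd1, 0.0872 for Fasn, 0.158 for Acacb and 0.484 for Thrsp. The block changed 1 call, Me1 between organs in 7c mice, to -0.621 (adjusted p = 0.021 by edgeR), and RLE size factors (-0.538), DESeq2 (-0.538), limma-voom (-0.625) and leaving out the samples numbered 6 (-0.624) also took it past the threshold. The correlation of Thrsp with Srebf1 was -0.206 without the 2 farthest livers, where fewer samples remain, and 0.637 without 7c replicate 4. Leaving out 1 liver at a time gave between 5 and 8 members correlated with Thrsp by Pearson's r, 5 without 7c replicate 6. By Spearman's rho it gave between 4 and 8, where all livers gave 7, with 4 without 7c replicate 1, 4, 5 or 6 or vehicle replicate 2. In kidney, 1 member in place of 2 lay above all vehicle kidneys when scaled by library totals (chosen after seeing the data), and 3 did without 7c replicate 6. Over all genes, the liver count of calls was 1, with 6 by DESeq2, 7 by the likelihood ratio test, 4 with no filter, 2 with filterByExpr, 12 with both tissues in 1 fit and 0 with the block. Pnpla3, at up to 94 counts, is the gene that depth limits.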
